A study of Mus musculus with 8 samples.

Results

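Carbidopa-treated mouse embryonic fibroblasts (MEFs) were compared with untreated MEFs across all expressed genes. The comparison was made between the 2 libraries labelled Carbidopa and the 2 labelled MEF, which are 4 of the 8 RNA-seq libraries of the study. The study had ranked small molecules by computation for their likelihood of turning fibroblasts into hepatic progenitor-like cells, and sequenced MEFs treated with 3 of them. The other treatments were LY-364747 (spelled LY-364947 in the paper) and CHIR-99021, with 2 libraries each. They served to show where the response to carbidopa was stronger or weaker. The question was which genes changed with carbidopa, and which of those changes set it apart from the other treatments.

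All cells were wild-type MEFs at passage 3 to 5, grown from E13.5 C57BL/6J embryos after the head, tail, limbs and internal organs had been removed. The cultures were therefore mixed primary cells of the remaining tissues. Each compound was added at 10 µM after 2 h of attachment in DMEM with 10% serum, and medium was changed every 3 days. Treatment time for the sequenced cells is not named, no vehicle is stated for the control, and nothing says whether the 2 libraries of a group came from separate cultures. The p-values therefore measure the spread between these libraries, which may be technical. The labels call the treated cells hepatic-like.

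Carbidopa inhibits aromatic-L-amino-acid decarboxylase, the enzyme that makes dopamine from levodopa, and does so by binding its pyridoxal phosphate cofactor. It is given with levodopa in Parkinson's disease to keep levodopa from being converted outside the brain. LY-364947 blocks the TGF-beta type I receptor, which drives matrix and contractile genes in fibroblasts. CHIR-99021 blocks the kinase GSK3, which otherwise leads beta-catenin of the Wnt pathway to breakdown. Fibroblasts make collagen, elastin and proteoglycans, and take on smooth muscle actin when they become contractile.

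The files gave raw read counts for 50578 genes, of which 15154 had enough reads for a test. Totals ranged from 15039566 to 20504338 counts a library. Replicates of every group differed by more than sampling noise, with a chi-square per degree of freedom of 4.31 in MEF, 34.6 in Carbidopa, 7.25 in LY-364747 and 9.21 in CHIR-99021. Carbidopa replicate 1 stood apart. By Euclidean distance over log2 normalized counts it lay 69.4 from carbidopa replicate 2, which was closer to LY-364747 replicate 2 (51.4). The difference followed transcript length. With the genes split into 4 groups of equal size by transcript length, the median log2 ratio of carbidopa replicate 1 to replicate 2 was 0.29 in the shortest group, 0.11 and -0.06 in the middle groups, and -0.31 in the longest. In the other pairs of replicates no group lay outside -0.06 to 0.04. Against MEF, the median log2 fold change of carbidopa moved the same way, from 0.25 in the shortest group to -0.20 in the longest. Where leaving out carbidopa replicate 1 moved a count by more than 1.5 times, the count without it is given beside it. The part of transcript length in single results was not tested beyond the alternative that models it.

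**Figure D1:**
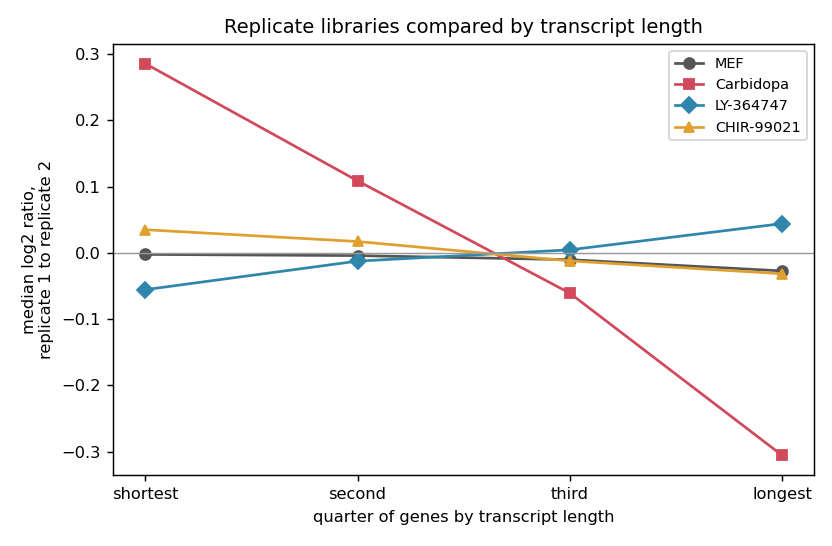
The 4 groups of genes by transcript length are on the x axis and the median log2 ratio of replicate 1 to replicate 2 on the y axis, with one line per treatment. The carbidopa line falls from 0.29 to -0.31, whereas the other lines stay between -0.06 and 0.04.

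By edgeR's quasi-likelihood test with Benjamini-Hochberg adjustment, 2732 genes were higher (18.0% of genes tested) and 2985 lower (19.7%) with carbidopa than in MEF at an adjusted p under 0.05. Of these, 1003 rose and 1374 fell at least 2-fold, and the median over all genes tested was a log2 fold change of 0.04. A fit without carbidopa replicate 1 also called 4473 of the 5717 genes (78.2%), none with the opposite sign. The counts depended more on the controls: without MEF replicate 1 they were 1405 higher and 1970 lower, and without MEF replicate 2 1293 and 1849. In what follows, values per library are counts normalized by size factors, replicate 1 first, and ± is the standard error of a log2 fold change. Unless stated otherwise, an adjusted p is from this edgeR test. Counts of list members called against MEF stand beside the shares of all genes tested, 18.0% higher and 19.7% lower. These shares hold for the fit of all libraries. A library left out changed the number called over all genes too, so list counts from such fits do not compare with these shares.

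The gene with the largest rise was Csn3, which encodes the milk protein kappa-casein (GRCm38 chr5:87925579-87932665). It measured 7.93 and 4.61 in the MEF libraries and 17374 and 17670.0 with carbidopa, a log2 fold change of 11.47 ± 0.23 (n = 2 and 2, edgeR adjusted p = 1.1e-09). Rarb, the retinoic acid receptor beta gene (GRCm38 chr14:16430839-16819156), went from 15.9 and 16.1 to 7417 and 6926 (8.82 ± 0.16, edgeR adjusted p = 8.61e-10). The libraries of each group lay close together, and the groups did not overlap for either gene. Clu, which encodes the secreted chaperone clusterin, rose from 317 and 339.9 to 27397 and 21895 (6.25 ± 0.16). Cyp26b1, which breaks down retinoic acid, rose from 208 and 196 to 9900.3 and 10549 (5.68 ± 0.13). Gdf10, a secreted factor of the TGF-beta superfamily, rose from 66.1 and 72.6 to 4134 and 3839 (5.86 ± 0.16), and Upp1, uridine phosphorylase, from 6.61 and 11.5 to 556 and 428 (5.74 ± 0.27).

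The other genes among the 10 largest rises were nearly silent in MEF. Kcnh1, a voltage-gated potassium channel, had 4 reads in both MEF libraries together and 6060 with carbidopa, a ratio of normalized counts of 1010 (95% exact interval 395 to 3720, counting error only). The transcription factor gene Irf4 had 2 reads against 262 (ratio 87.5, 24.0 to 727), and Cntn6, a neural adhesion protein, 2 against 257 (85.9, 23.5 to 713). Shisa3, which inhibits Wnt and FGF signaling, measured 6.61 and 0 in MEF and 264 and 279.6 with carbidopa (6.43 ± 0.50). For each of these genes both carbidopa libraries lay far above both MEF libraries.

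Among the largest falls was that of a matrix gene. Aspn, which encodes the proteoglycan asporin (GRCm38 chr13:49544443-49567565), measured 13305 and 17170.0 in MEF and 5.75 and 8.25 with carbidopa (-11.04 ± 0.29, edgeR adjusted p = 2.78e-09). Eln, elastin, went from 2021 and 2285 to 9.85 and 8.25 (-7.85 ± 0.19). Both matrix genes were thus near the counting floor in both carbidopa libraries. Lgr5, a receptor for R-spondins and a Wnt target, went from 7068 and 7547 to 10.7 and 9.07 (-9.49 ± 0.23). Fst, follistatin, which binds activin, fell from 1342 and 1629 to 13.1 and 7.42 (-7.14 ± 0.26), and C1qtnf3, a secreted protein with a C1q domain, from 5663 and 6308 to 6.57 and 6.6 (-9.78 ± 0.19). The matrix gene Adamtsl3 (605 and 699 to 0 and 4.95) and the choline transporter gene Slc5a7 (1096 and 1218 to 4.1 and 9.9) also fell.

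The last named falls rest on very few reads in the carbidopa libraries. The eosinophil chemokine Ccl11 had 462 reads in MEF and 1 with carbidopa (ratio 691, 123 to 27400), and cardiac troponin T, Tnnt2, 383 and 3 (191, 64.9 to 930). 1700047I17Rik2, the largest fall by fitted log2 fold change, had 1244 reads in MEF and 0 with carbidopa, at least 621-fold lower against 3 reads over the group. Its value is uncertain, since it measured 576 and 0 in the LY-364747 libraries.

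**Figure D2:**
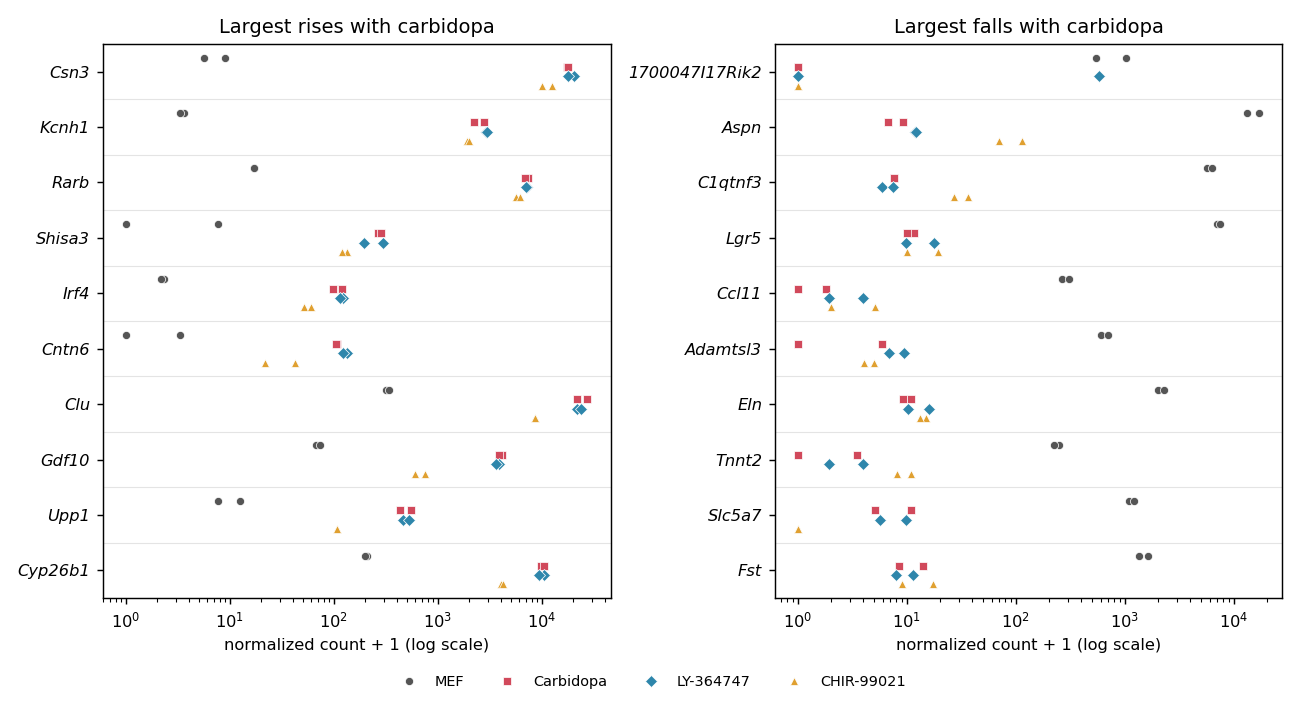
Normalized count plus 1 in each library (log scale) for the 10 largest rises (left) and the 10 largest falls (right) with carbidopa, with one point per library and a symbol per group, so that equal values overlap. The carbidopa points lie apart from the MEF points for every gene and for most genes beside the LY-364747 points, while the CHIR-99021 points of Gdf10, at 606 and 749, lie below both.

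The other compounds share the MEF libraries as controls, so their values are given side by side. Csn3 reached 20125 and 17725 with LY-364747 and 10041 and 12547 with CHIR-99021, while Aspn measured 10.9 and 11.2 with LY-364747 and 68.9 and 112 with CHIR-99021. Gdf10 reached 3854 and 3595 with LY-364747 and 606 and 749 with CHIR-99021. Of the 20 genes, Gdf10 stood highest above the mean of the other treatments on the log2 scale among the rises that passed that test (1.32 ± 0.10, edgeR adjusted p = 0.00014), followed by Upp1 (1.10 ± 0.14, edgeR adjusted p = 0.00274).

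Retinoic acid is a vitamin A derivative that binds nuclear receptors, which switch on genes such as Rarb and the enzymes that degrade it. The promoters of Rarb and Cyp26a1 are shown because, among the retinoic acid response genes, only these held the motif described below. The sequences are from RefSeq promoters of GRCm38.p6, read 5′ to 3′ on the strand of the gene, with capitals marking the searched motif. It is a spaced direct repeat of the receptor's recognition element, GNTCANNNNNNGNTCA, sought on both strands.
Rarb, chr14:16575477-16575570, minus strand: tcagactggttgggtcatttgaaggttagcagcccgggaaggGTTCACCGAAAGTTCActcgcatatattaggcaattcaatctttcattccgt
Cyp26a1, chr19:37697734-37697807, plus strand: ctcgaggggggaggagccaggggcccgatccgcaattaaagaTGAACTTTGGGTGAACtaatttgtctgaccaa
The repeat ends 36 bases before the annotated start in Rarb, and lies on the opposite strand 16 to 32 bases before the start in Cyp26a1. It was found in 283 of all 32851 promoters of 300 bases (0.861%) and in 2 of the 20 retinoic acid response genes with a promoter in the table. A match describes the letters in this window and is not a measured binding site.

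Of 29 retinoic acid response genes, 24 were tested, of which 14 were higher and 8 lower with carbidopa than in MEF, with a median log2 fold change of 0.81. Beside Rarb and Cyp26b1, Dhrs3, which reduces retinaldehyde back to retinol, went from 519 and 515 to 8583 and 7372 (3.97 ± 0.12), and Tgm2, transglutaminase 2, from 352 and 315 to 1389 and 1357 (2.07 ± 0.11). Cyp26a1 had 0 reads in both MEF libraries and 39 with carbidopa, at least 8.69-fold higher. The median of the list was 0.81 also with Cyp26a1 at this bound. Among enzymes that make retinoic acid, Aldh1a2 fell by 2.54 ± 0.56 and Aldh1a3 fell by 3.45 ± 0.45 on the log2 scale (edgeR adjusted p = 0.00564 and 0.000213), while Aldh1a1 rose by 1.48 ± 0.22. These 3 enzymes were chosen after their values were seen. The list medians were 0.84 with LY-364747 and 0.96 with CHIR-99021. Cyp26b1 and Rarres2, which encodes chemerin, were higher with carbidopa than with CHIR-99021 (1.30 ± 0.10 and 2.12 ± 0.25), and Tgm2 was lower (-0.96 ± 0.10).

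Contractile and matrix genes were lower as groups. Of 21 smooth muscle contractile genes tested, 1 rose and 18 fell (median -1.23). Acta2, smooth muscle actin (GRCm38 chr19:34241090-34255590), measured 38411 and 35172 in MEF and 1571 and 1615 with carbidopa (-4.51 ± 0.18, edgeR adjusted p = 4.52e-08), so the carbidopa libraries held a small fraction of the MEF level. Actg2, enteric smooth muscle actin, went from 794 and 722 to 53.4 and 46.2, Cnn1, calponin, from 345 and 354 to 46.8 and 36.3, and Mylk, the myosin light chain kinase, from 907 and 916 to 186 and 219. The rise was in tropomyosin, Tpm1 (12897 and 12411 to 33321 and 25965, 1.25 ± 0.13). Contractile genes are known targets of serum response factor, whose site is the CArG box. With carbidopa 14 of the 21 were lower than with CHIR-99021 and none higher, and 3 were lower than the mean of the other treatments (0 without MEF replicate 1, 1 without MEF replicate 2, 5 without carbidopa replicate 1 and 9 without carbidopa replicate 2). The share of all genes lower than with CHIR-99021 was 6.62%, and 1.22% were lower than the mean.

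The CArG box was found in the promoters of 2 of 17 contractile genes in the RefSeq table, against 535 of all 32851 (1.63%). Both are shown because they carry this list's motif, on the plus strand of GRCm38.p6 with the box in capitals.
Myl9, chr2:156775261-156775354, plus strand: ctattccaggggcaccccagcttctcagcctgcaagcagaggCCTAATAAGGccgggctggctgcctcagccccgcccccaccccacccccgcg
Vcl, chr14:20929148-20929222, plus strand: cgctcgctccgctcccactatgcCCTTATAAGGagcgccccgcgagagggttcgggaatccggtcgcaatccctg
Myl9, a regulatory myosin light chain, measured 1904 and 1904 in MEF and 902 and 732 with carbidopa (-1.20 ± 0.17, edgeR adjusted p = 0.00033). Vcl, vinculin of focal adhesions, measured 10443 and 10397 in MEF and 6831 and 8403 with carbidopa (-0.43 ± 0.11, edgeR adjusted p = 0.0108).

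Of 22 fibroblast markers tested, 2 rose and 18 fell (median -1.22). In bulk RNA, fewer cells of a type and less RNA per cell cannot be told apart. Wisp2, a secreted CCN protein, went from 291 and 299.6 to 4.92 and 3.3 (-6.10 ± 0.29, edgeR adjusted p = 1.21e-07), and the matrix protein fibulin 2, Fbln2, from 46381 and 43476 to 4217 and 4553 (-3.34 ± 0.11). Among 23 genes of fibrillar collagens and their maturation, 4 rose and 15 fell (median -1.07). Col11a1, a minor fibril collagen, fell from 3553 and 3926 to 171 and 199.6 (-4.31 ± 0.13), and Lox, the enzyme that crosslinks collagen and elastin, from 100850.0 and 104410.0 to 14084 and 16072 (-2.75 ± 0.11). The crosslinking enzyme Loxl4 rose (275 and 257 to 1044 and 1182, 2.09 ± 0.14), although it was not among the 4 members with the smallest p. Basement membrane genes gave 2 rises and 13 falls of 19 (median -0.97). The collagen IV chains Col4a1 and Col4a2 fell by 1.83 ± 0.16 and 1.82 ± 0.13 on the log2 scale, and the rises were in the nidogens Nid1 (1.17 ± 0.13) and Nid2 (1.10 ± 0.11). Of 22 matrix metalloproteases and inhibitors, 2 rose and 15 fell (median -0.89). The collagenase gene Mmp13 went from 670.2 and 683 to 24.6 and 17.3, and the inhibitors Timp1, Timp2 and Timp3 fell by 2.95, 3.54 and 2.68 on the log2 scale.

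Of 26 TGF-beta target and feedback genes, 7 rose and 18 fell with carbidopa (median -1.37), beside -1.42 with LY-364747 and -0.43 with CHIR-99021. These medians share the MEF libraries. Skil, a SMAD repressor that the pathway itself induces, measured 1929 and 2068 in MEF and 435 and 459 with carbidopa. It measured 491 and 454 with LY-364747 and 2158 and 2471 with CHIR-99021, and relative to CHIR-99021 it differed by -2.38 ± 0.11 (log2, edgeR adjusted p = 1.34e-06). In all, 15 of the 26 were lower and 3 higher with carbidopa than with CHIR-99021, against 6.62% and 8.08% of all genes tested. Ltbp2, which encodes a latent TGF-beta binding protein, fell from 5011 and 4381 to 493 and 587, and Ctgf, connective tissue growth factor, from 7356 and 6681 to 722 and 645. The receptor gene Tgfbr1 went from 1984 and 2379 to 746 and 942 (-1.35 ± 0.15, edgeR adjusted p = 6.14e-05). Among the 7 rises were Tgfb2 (2.14 ± 0.12) and the BMP-responsive genes Id1 (1.86 ± 0.27) and Id3 (3.21 ± 0.30), chosen after their values were seen.

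**Figure D3:**
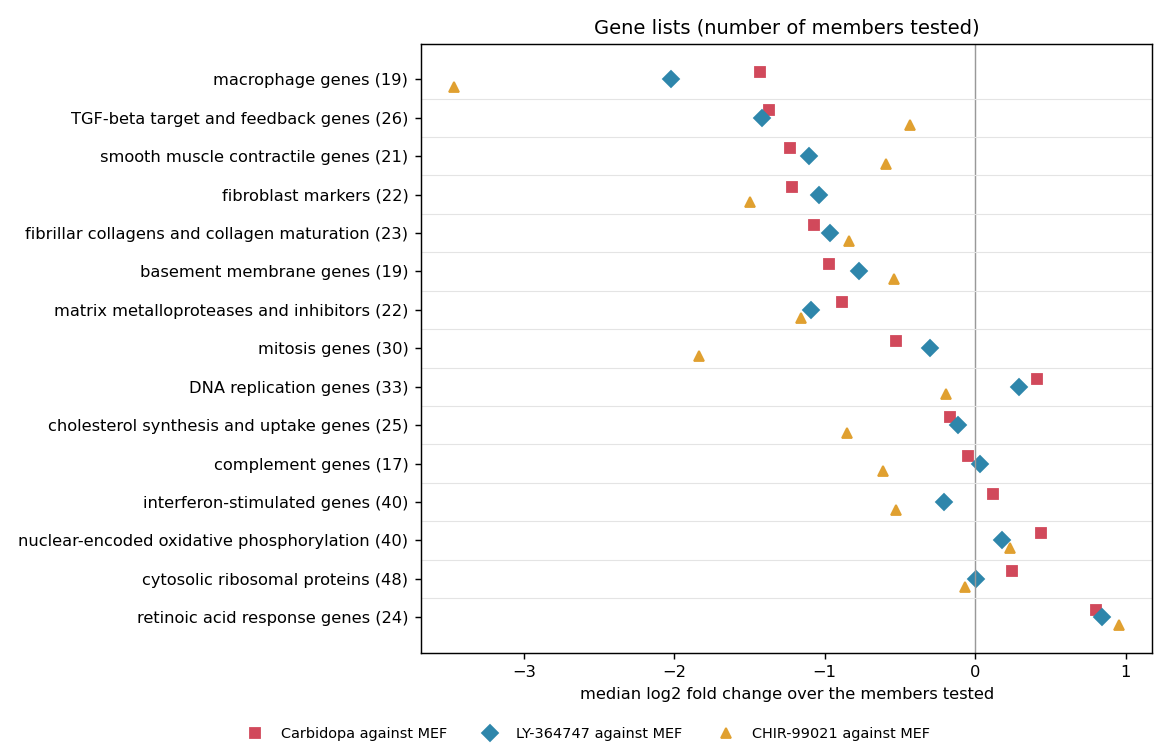
Median log2 fold change against MEF over the members tested of 15 gene lists (number tested in parentheses), with a square for carbidopa, a diamond for LY-364747 and a triangle for CHIR-99021, all sharing the same MEF libraries. The carbidopa squares lie close to the diamonds in most lists, and in the macrophage list the square lies at -1.43, the diamond at -2.02 and the triangle at -3.46.

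Carbidopa differed from the mean of LY-364747 and CHIR-99021 in 509 genes, 324 higher (2.14% of genes tested) and 185 lower (1.22%), by the same edgeR test. A fit without carbidopa replicate 1 also called 365 of the 509 (71.7%). With carbidopa replicate 2 left out instead, when the lone replicate 1 is assumed to vary like the other groups, the counts rose to 2115 and 2161, and each MEF, LY-364747 or CHIR-99021 library left out lowered them to 120 to 184 higher and 47 to 78 lower. Of these genes, 121 were higher and 100 lower in both carbidopa libraries than in all 4 other treated libraries, with at least 100 normalized counts on average in the higher group. Against CHIR-99021 alone, 1224 genes were higher (8.08%) and 1003 lower (6.62%). These counts became 427 and 288 when the first CHIR-99021 library was left out, 637 and 478 when the other one was, and 2222 and 2410 without carbidopa replicate 2. With MEF replicate 1 or 2 left out, 644 and 635 genes were lower. Against LY-364747 alone, 0 were higher and 2 lower (0.0132% of genes tested), while 1367 had an unadjusted p under 0.05 and DESeq2 called 6 higher and 9 lower. With no filter on low counts 128 were higher and 201 lower, and 1863 and 1953 when carbidopa replicate 2 was left out. A gene that missed the threshold against LY-364747 was not shown to be alike.

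The 2 genes that differed from LY-364747 were Actn4 and Col1a1. Actn4, the actin crosslinker alpha-actinin 4 (GRCm38 chr7:28893248-28962340), measured 17074 and 16844 in MEF and 2603 and 3129 with carbidopa. It measured 7608 and 7873 with LY-364747 and 7141 and 6507 with CHIR-99021, so the carbidopa libraries were the lowest. The difference from LY-364747 was -1.43 ± 0.11 on the log2 scale (edgeR adjusted p = 0.00199), and -2.54 ± 0.12 from MEF. Col1a1, the main chain of collagen I (GRCm38 chr11:94936224-94953042), measured 72455 and 70726 in MEF and 12002 and 11779 with carbidopa. The other treatments gave 39256 and 29790.0 (LY-364747) and 24068 and 24281 (CHIR-99021), again without overlap, and the difference from LY-364747 was -1.54 ± 0.13 (edgeR adjusted p = 0.00204). Its partner chain Col1a2 differed less, with 17000.0 and 17417 under carbidopa beside 18864 and 17795 under LY-364747 (-0.09 ± 0.09, edgeR adjusted p = 0.685). Both calls remained without carbidopa replicate 1 (edgeR adjusted p = 0.000209 for Actn4 and 0.00119 for Col1a1), but neither was made when only the carbidopa and LY-364747 libraries were fitted. Some abundant noncoding RNAs also had lower values with carbidopa than with LY-364747, although they were not called. Malat1 measured 41978 and 67592 with carbidopa and 124100.0 and 108340.0 with LY-364747. The 18S ribosomal RNA gene Rn18s-rs5 measured 171440.0 and 161030.0 with carbidopa beside 313580.0 and 248460.0. Their part in the 2 differences was not tested.

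Some epidermal genes were read in the carbidopa libraries and hardly or not in the others. Keratinocytes of the basal layer make Krt5 and Krt14, and as they differentiate switch to Krt1 and Krt10 and then to filaggrin (Flg) and loricrin (Lor). Krt1 had 58 and 91 reads in the carbidopa libraries and 0 in each of the other 6, which is at least 33.2-fold higher than MEF, 42.6-fold higher than LY-364747 and 40.5-fold higher than CHIR-99021, each against 3 reads over the group. Flg had 49 and 27 reads against 0 in the other 6, at least 16.9-fold, 21.7-fold and 20.7-fold higher in the same order. Neither gene was thus read at all outside the carbidopa libraries. Krt14 had 18 and 78 reads, which differed between the carbidopa libraries, and at most 1 elsewhere (ratio to MEF 32.1 over both libraries). Krt5 had 16 and 30 reads and at most 2 elsewhere (ratio 30.7).

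These genes were chosen by their reads, with a rule over all 50578 genes listed, at least 10 reads in both carbidopa libraries and at most 3 in each of the other 6. The rule gave 9 genes (0.0178%), and for MEF 31, for LY-364747 0 and for CHIR-99021 0. Beside Krt1, Flg, Krt14 and Krt5, they were Lor (15 and 10 reads), dermokine, Dmkn (13 and 16), the desmosomal plakophilin Pkp1 (11 and 16), the calmodulin-like skin protein gene Calm4 (10 and 12) and Tmem254c (18 and 47). Of these, 8 are known as epidermal genes, and Tmem254c is the exception. Since these reads chose the genes, their values are a description and no test is given.

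Krt10, the partner of Krt1 in suprabasal cells, measured 25.1 and 20.7 in MEF and 139.5 and 84.1 with carbidopa. With LY-364747 it measured 34.6 and 18.7 and with CHIR-99021 38 and 30.5, and no other library reached a carbidopa library. The rise over MEF was 2.31 ± 0.37 (edgeR adjusted p = 0.000774) and the difference from the mean of the other compounds 1.89 ± 0.28 (edgeR adjusted p = 0.00588). Krt6a, a keratin of activated epidermis, had 0 reads in carbidopa replicate 1 and 53 in replicate 2, so it was high in a single library. Among genes of the cornified envelope, Sprr1a and Ivl rose and Sprr3 fell. Sprr1a went from 58.2 and 65.7 to 1209.8 and 1096 with carbidopa and 1298 and 1272 with LY-364747, and involucrin, Ivl, from 30.4 and 25.4 to 453 and 333 with carbidopa and 292 and 348 with LY-364747. Sprr3 went from 72.7 and 93.3 to 19.7 and 22.3 with carbidopa (-1.96 ± 0.27, edgeR adjusted p = 0.000261), beside 26.7 and 29 with LY-364747. The desmosome gene Dsp (-0.86 ± 0.23) and suprabasin, Sbsn (0.93 ± 0.30), were called only with carbidopa replicate 1, with edgeR adjusted p of 0.0159 and 0.034, and 0.0591 and 0.129 without it.

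Of the 28 epidermal genes listed, 14 passed the filter on low counts. Krt1, Flg, Krt14 and Krt5 passed it through the carbidopa libraries, so no count or median over these 14 is given. Summed over the list, reads were 1622 and 1872 in MEF and 5908 and 4761 with carbidopa. They were 3964 and 4301 with LY-364747 and 4486 and 4684 with CHIR-99021. Scaled to equal library totals, the sums were 107.8 and 106.1 in MEF and 295.5 and 232.2 with carbidopa. On this scale LY-364747 gave 228.6 and 239.5 and CHIR-99021 266.9 and 278.5. Carbidopa replicate 2 thus lay within the range of the other treated libraries. Perp and Sprr1a gave most reads of the list, 3191 and 1474 of 5908 in carbidopa replicate 1. Of other genes of epithelial cells, the keratinocyte factor Trp63 had 1 and 4 reads with carbidopa and at most 1 elsewhere, and E-cadherin, Cdh1, 4 and 1 beside at most 3. The simple epithelial keratin genes Krt19 and Krt18 had more reads, 408 and 244 with carbidopa beside 36 to 194 for Krt19 and 27 and 21 beside 5 to 48 for Krt18. Perp, of desmosomes, was abundant in every library, with 3191 and 2248 reads with carbidopa and 1725 and 1698 normalized counts in MEF against 2619 and 1854, a difference that was not called (0.41 ± 0.15, edgeR adjusted p = 0.05). The source of these reads was not tested.

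**Figure D4:**
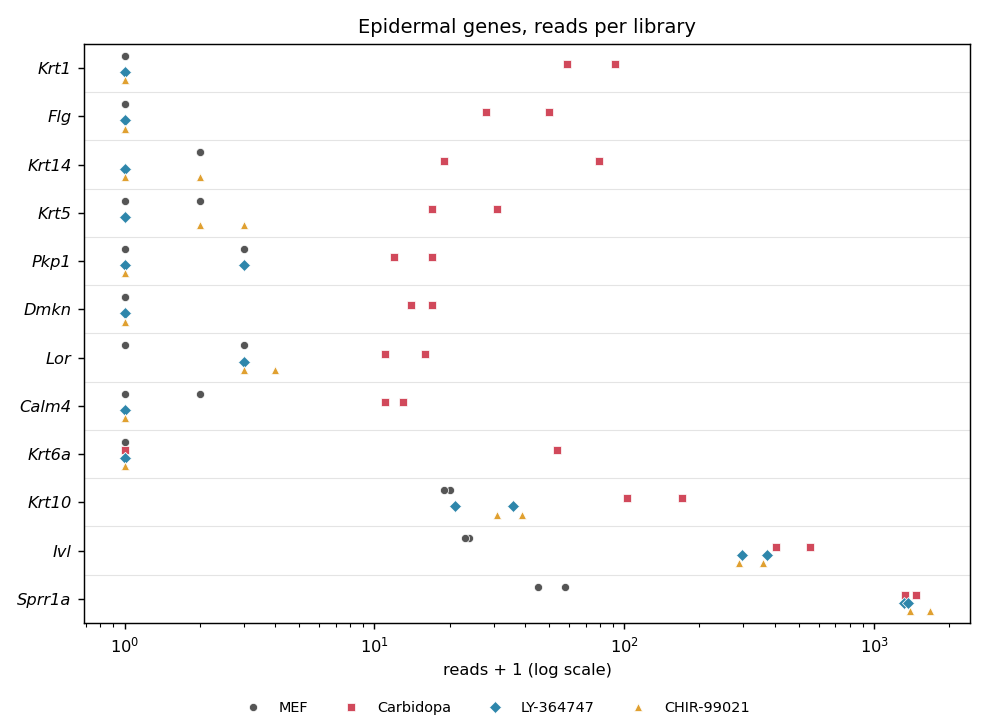
Reads plus 1 in each library (log scale) for 12 epidermal genes, with one point per library, a symbol per group and equal values overlapping. The carbidopa squares lie at 10 reads or more for Krt1, Flg, Krt14, Krt5, Pkp1, Dmkn, Lor and Calm4 while the other points lie at 3 or fewer, whereas all treated points of Ivl and Sprr1a lie far to the right of the MEF points.

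Macrophage genes fell with carbidopa, and most stayed above the mean of the other compounds. MEF cultures can carry tissue macrophages from the embryo. Of 22 listed genes 19 were tested, of which 0 rose and 18 fell against MEF (median -1.43), beside medians of -2.02 with LY-364747 and -3.46 with CHIR-99021. Cd14 was not called (-0.36 ± 0.19). Lyz2, lysozyme, measured 13119 and 13543 in MEF and 3755 and 3306 with carbidopa, 2480.1 and 2525 with LY-364747 and 830.3 and 943 with CHIR-99021. The lysosomal protease gene Ctss went from 1701 and 1630.5 to 194 and 166, and the leukocyte phosphatase gene Ptprc from 527 and 549.6 to 91.9 and 117. The fractalkine receptor gene Cx3cr1 fell to near 0 (108 and 96.8 to 0.821 and 0.825). In all, 16 of the 19 were higher with carbidopa than the mean of the other compounds and 0 lower, against 2.14% of all genes, and the same numbers held against CHIR-99021, where 8.08% of all genes were higher. Against LY-364747 none was called by edgeR. The median log2 difference from LY-364747 was 0.44, and also 0.44 without carbidopa replicate 2. Without carbidopa replicate 1 the counts were 0 and 18 of 20 against MEF and 15 and 0 against the mean.

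The largest differences from the mean of the other compounds were also found in genes of these cells. Mrc1, the mannose receptor (GRCm38 chr2:14229392-14332057), measured 711 and 872 in MEF, 402 and 459 with carbidopa, 321 and 318 with LY-364747 and 9.99 and 13.2 with CHIR-99021. It was thus lowest with CHIR-99021 by far, and 2.81 ± 0.14 higher with carbidopa than the mean (log2, edgeR adjusted p = 2.92e-05). C1qc, a chain of complement C1q, was higher by 1.60 ± 0.12 and the chemokine Ccl9 by 1.56 ± 0.19. None of these genes was called against LY-364747 alone.

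Some genes of secreted proteins known from myeloid cells rose over MEF although the macrophage genes fell. Which cells made them was not tested. Ccl6, a chemokine, measured 55.5 and 42.6 in MEF, 872 and 865 with carbidopa, 772 and 615 with LY-364747 and 71.9 and 64.1 with CHIR-99021 (4.17 ± 0.18 against MEF, edgeR adjusted p = 7.22e-08). The gelatinase gene Mmp9 measured 17.2 and 12.7 in MEF, 370.2 and 374 with carbidopa, 282 and 281 with LY-364747 and 40 and 24.4 with CHIR-99021 (4.66 ± 0.25). Both were highest with carbidopa, also far above MEF with LY-364747, and close to MEF with CHIR-99021. Fcna, ficolin A of the lectin complement pathway, measured 2.64 and 12.7 in MEF, 181 and 115 with carbidopa, 57.3 and 77.6 with LY-364747 and 7.99 and 10.2 with CHIR-99021 (4.22 ± 0.46). Relative to the mean of the other compounds these genes were higher by 1.99 ± 0.12, 1.96 ± 0.16 and 2.57 ± 0.31 on the log2 scale. None of them was called between carbidopa and LY-364747.

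**Figure D5:**
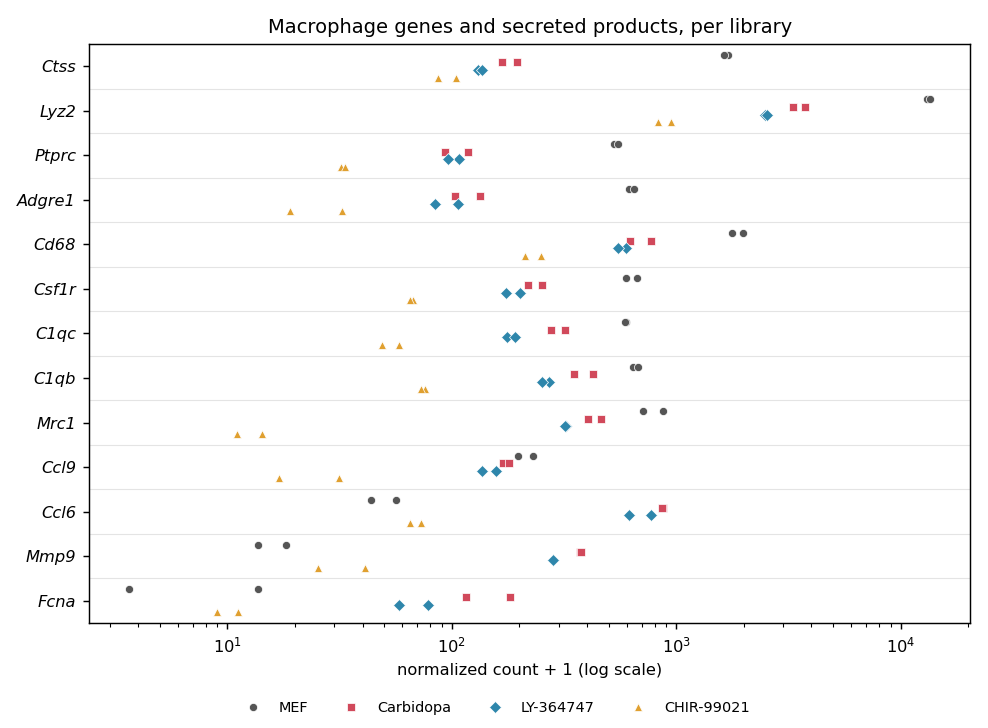
Normalized count plus 1 in each library (log scale) for 13 macrophage genes and secreted products known from myeloid cells, with one point per library and a symbol per group. From Ctss to Mrc1 the carbidopa squares lie left of MEF and right of CHIR-99021, whereas for Ccl6, Mmp9 and Fcna they lie farthest to the right.

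Dpt, dermatopontin of the skin matrix, was the remaining gene among the 8 highest over the mean of the other compounds. It measured 5942 and 6077 in MEF, 3304 and 2855 with carbidopa and 483 and 476 with CHIR-99021 (1.54 ± 0.09, edgeR adjusted p = 4.59e-05). Against LY-364747 alone it was not called. Among the 8 lowest were Cdh3, Ednra, Kif26b, Wisp1, Actn4, Ltbp2 and Has2, with log2 differences of -1.57 to -1.32. Cdh3, P-cadherin, measured 1133 and 1282 in MEF, 68.1 and 43.7 with carbidopa, 72.1 and 93.5 with LY-364747 and 351 and 315 with CHIR-99021. Ednra, the endothelin A receptor, measured 190.4 and 214 with carbidopa beside 931 and 1046 in MEF, 324 and 284 with LY-364747 and 1016 and 1182 with CHIR-99021. Wisp1, a Wnt-induced CCN protein, measured 656 and 802 beside 16379 and 16723, 830.3 and 874 and 4344 and 4885 in the same order. For all of these but Actn4 the LY-364747 libraries lay much nearer to carbidopa than the CHIR-99021 libraries did.

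Among the largest differences downward from CHIR-99021 were Mfap4, a microfibril protein (-3.14 ± 0.14), Megf10, a phagocytic receptor (-3.00 ± 0.27), Wisp1 (-2.67 ± 0.12) and Cdh3 (-2.58 ± 0.21). The largest differences upward were in Mrc1 (5.19 ± 0.21), Fcna, Ccl6 (3.66 ± 0.17), Mmp9 (3.51 ± 0.21) and Ccl9 (2.88 ± 0.26).

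Genes of mitosis were lower than in MEF but higher than with CHIR-99021. Of 30, 0 rose and 16 fell against MEF (median -0.53, beside -0.30 with LY-364747 and -1.83 with CHIR-99021). Fewer fell when carbidopa replicate 1 or an MEF replicate was left out. The median was -0.48 without carbidopa replicate 1, -0.46 without MEF replicate 1 and -0.50 without MEF replicate 2. Mki67, the Ki-67 proliferation marker, measured 1286 and 1290.5 in MEF and 546 and 783 with carbidopa, and 258 and 272 with CHIR-99021. The carbidopa libraries lay between the others (-0.94 ± 0.16 against MEF and 1.32 ± 0.17 against CHIR-99021, edgeR adjusted p = 0.00121 and 0.00079). Top2a, the topoisomerase of dividing cells, fell by 0.61 ± 0.12 on the log2 scale. Of all genes tested, 8.08% were higher than with CHIR-99021 and 2.14% higher than the mean of the other compounds. Relative to CHIR-99021, 25 of the 30 were higher and 0 lower, and relative to the mean of the other compounds 6 and 0 (10 and 0 without carbidopa replicate 1, and 2 and 0 without either MEF replicate). DNA replication genes did not follow: of 33, 11 rose and 1 fell against MEF (median 0.41), with 6 rises without MEF replicate 1, 5 without MEF replicate 2 and 3 falls without carbidopa replicate 2. The replicative helicase gene Mcm3 rose from 375 and 366 to 715 and 639, while Rrm2, a subunit of ribonucleotide reductase, fell from 1049.6 and 914 to 538 and 576.

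Genes of cholesterol synthesis and uptake kept closer to their MEF level with carbidopa and LY-364747 than with CHIR-99021. Their medians were -0.17, -0.12 and -0.85 in this order. Of all genes tested, 18.0% were higher and 19.7% lower than in MEF, and 8.08% and 6.62% than with CHIR-99021. Against MEF 4 of 25 rose and 7 fell (median -0.17), or 2 and 4 without MEF replicate 1, 2 and 2 without MEF replicate 2 and 7 and 11 without carbidopa replicate 2, while 17 were higher and 1 lower than with CHIR-99021. Insig1, the sterol sensor, measured 4523 and 4749.6 in MEF, 6549.8 and 6812 with carbidopa and 3685 and 4037 with CHIR-99021. Hsd17b7, an enzyme of late cholesterol synthesis, fell from 3967 and 4561 to 1339 and 1859.9. Complement genes split, with 7 of 17 up and 7 down against MEF (median -0.05, 4 down without MEF replicate 2), and 11 higher than with CHIR-99021 and 0 lower. With LY-364747 the complement genes also gave 7 up and 7 down against MEF (median 0.03). No gene of either list was called between carbidopa and LY-364747. Beside Clu, the lectin pathway protease gene Masp1 rose with carbidopa (394 and 416 to 1282 and 2033), whereas Cd55, a complement inhibitor, and C3ar1, the C3a receptor, fell (-2.36 ± 0.11 and -2.44 ± 0.18).

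Calls of short transcripts of the ribosome and of respiration depended on single libraries. Without either MEF library fewer genes were called over all genes tested as well. Of 40 nuclear-encoded genes of oxidative phosphorylation, 24 rose and 0 fell against MEF (median 0.44), 10 rose without carbidopa replicate 1, 37 without carbidopa replicate 2, 4 without MEF replicate 1 and 3 without MEF replicate 2. Ndufb3, a subunit of complex I, measured 336 and 295 in MEF and 656 and 453 with carbidopa (0.84 ± 0.17, edgeR adjusted p = 0.00379). Of 48 cytosolic ribosomal protein genes, 8 rose and 0 fell (median 0.25), and 43 rose without carbidopa replicate 2 but 0 without carbidopa replicate 1 or either MEF replicate. Rps19 measured 2204 and 2322 in MEF and 3574 and 2658 with carbidopa, and its edgeR adjusted p of 0.0204 became 0.0577 without carbidopa replicate 1 and passed 0.05 without either MEF replicate too. Counts of interferon-stimulated genes moved with single libraries too, with 8 rises and 5 falls of 40 (median 0.12), 3 and 6 without carbidopa replicate 1, 12 and 2 without carbidopa replicate 2, 4 and 1 without MEF replicate 1 and 3 and 2 without MEF replicate 2. The antiviral genes Ifit2 and Ifit3 rose in both libraries (Ifit2 991 and 1046 to 3858 and 3855, Ifit3 1182 and 1183 to 3187 and 2423) and were higher than the mean of the other compounds (0.65 ± 0.09 and 1.10 ± 0.12, edgeR adjusted p = 0.00372 and 0.00114).

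Ddc, the gene of the enzyme that carbidopa inhibits, was weakly expressed and not called. It measured 19.8 and 25.4 in MEF and 27.9 and 21.4 with carbidopa, which overlap (0.14 ± 0.40, edgeR adjusted p = 0.803). Of 12 tested genes of monoamine and vitamin B6 metabolism, 4 rose and 1 fell (median 0.27), and 2 rose without carbidopa replicate 1, MEF replicate 1 or MEF replicate 2. Maoa, monoamine oxidase A, rose from 2567 and 2588 to 4075 and 3808 (0.63 ± 0.09, edgeR adjusted p = 0.000484) and Slc18a2, the vesicular monoamine transporter, fell from 155 and 129 to 55 and 65.2 (-1.21 ± 0.20). Among 33 enzymes that use pyridoxal phosphate, 3 rose and 8 fell (median -0.08), or 1 and 3 without MEF replicate 1, 1 and 4 without MEF replicate 2 and 5 and 9 without carbidopa replicate 2. Of all genes tested, 18.0% were higher and 19.7% lower than in MEF. Abat, GABA transaminase, rose by 1.09 ± 0.13, and Cth, cystathionine gamma-lyase, fell by 1.62 ± 0.27 on the log2 scale. None of the 33 was called against the mean of the other compounds by edgeR, and 2 were higher without carbidopa replicate 1.

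Most hepatocyte genes had few reads in every library. Of 48 listed, 36 had under 10 reads in every library, 12 of them 0 in every library, and 7 were tested. Alb, albumin, had 2 and 0 reads in MEF, 5 and 8 with carbidopa, 8 and 10 with LY-364747 and 6 and 7 with CHIR-99021. Hnf4a, the hepatocyte nuclear factor, had 1 and 2 reads in MEF and 6 and 7 with carbidopa. The ratios to MEF were 4.34 for Alb (95% exact interval 0.983 to 39.6) and 2.90 for Hnf4a (0.796 to 15.8), and both intervals include no difference. Cyp1a1 measured 5.29 and 0 in MEF and 10.7 and 2.47 with carbidopa, which overlap. Of the 7 tested, 3 rose and 2 fell. Arg1, arginase, rose from 5.29 and 5.76 to 132 and 106 (4.42 ± 0.31, edgeR adjusted p = 2.47e-06) and Cyp3a13 from 13.2 and 5.76 to 54.2 and 47, while Ass1, argininosuccinate synthase, fell from 5757 and 5442 to 2814 and 2145 and Fah, of tyrosine breakdown, from 415 and 461 to 243 and 206. Trf, transferrin, rose by 0.80 ± 0.24, but its edgeR adjusted p of 0.0231 became 0.10 without carbidopa replicate 1.

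Of 24 hepatic progenitor and simple epithelial genes, 12 had under 10 reads in every library and the other 12 were tested, of which 3 rose and 5 fell (median 0.03). Krt19, a keratin of ducts and progenitors, rose from 56.8 and 41.5 to 335 and 201 (2.48 ± 0.30, edgeR adjusted p = 0.000114), and Dlk1, a Notch ligand family protein, from 4164 and 4126 to 10444 and 7731 (1.16 ± 0.14). Both carbidopa libraries exceeded every other library for Krt19 and for Dlk1, with replicate 1 the higher. The LY-364747 libraries were close to carbidopa replicate 2, at 148 and 181 for Krt19 and 7098 and 7207 for Dlk1. None of the 12 genes was called between carbidopa and LY-364747. Spp1, osteopontin, and Sox9, a progenitor transcription factor, fell by 1.43 ± 0.14 and 1.13 ± 0.17 on the log2 scale. Epcam, a surface marker of progenitors, had 0 reads in MEF and 3 and 6 with carbidopa, beside 2 to 5 with the other compounds.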

How the data were processed

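Wild-type MEFs were sequenced untreated (MEF) or treated with 10 µM carbidopa, LY-364747 or CHIR-99021, with 2 libraries each, grouped by the submitters' labels. The authors demultiplexed reads with bcl2fastq, aligned them to mm10 with STAR 2.4.2a and counted reads per gene with featureCounts, and the values analysed here are these raw counts as deposited. The annotation release and strand setting are not given in the sources used here, and the labels and the paper name different library kits. Gene names were matched to GENCODE M21 (GRCm38), which held 50354 of the 50578 identifiers (99.6%). Overlapping, antisense and near-identical genes may share reads.

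Counts were filtered with filterByExpr, scaled by TMM and tested with edgeR 4.0.16 in R 4.3.3 (glmQLFit and glmQLFTest, all 8 libraries, group as the only term), with Benjamini-Hochberg adjustment over the 15154 genes tested and a threshold of 0.05. The SE is the log2 fold change divided by the square root of F. Normalized counts used DESeq2 size factors (version 1.42.0). The coefficient of biological variation was 11.0%. Steps were tested on simulated data. Alternatives were DESeq2's Wald test, RLE size factors, no filter or at least 10 counts in every library, only the groups compared, a replicate block and each library left out. Transcript length offsets and crossed LY-364747 numbers were added after seeing the data.

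Members, gene lists and tests were chosen with earlier results of these data known. Named genes were the 10 largest rises and falls against MEF among called genes whose groups did not overlap and whose higher group averaged 100 normalized counts or more, the 8 largest differences each way from the mean of the other compounds, every gene called against LY-364747, the 5 largest each way against CHIR-99021, the members with the lowest p in each list (4 at most), and Acta2, Wisp2, Alb, Hnf4a, Cyp1a1 and the compounds' targets. Predicted genes, pseudogenes and sex-linked marker genes were left out, except 1700047I17Rik2, whose symbol the filter on names did not catch. A few named items are not reported here. Other names were chosen after their values were seen. Intervals of ratios are exact conditional binomial intervals on reads scaled by library size factors.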

Additional observations from a re-analysis of the deposited data

How the results depend on the processing

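Against MEF, the counts of genes higher and lower stayed within 1.5 times the reported ones under every alternative other than leaving out a library, where they ranged from 1293 to 3995 higher and from 1849 to 4001 lower. Against the mean of the other compounds, leaving out a library gave 120 to 2115 higher and 47 to 2161 lower. The counts were 847 and 722 with no filter on low counts, 175 and 72 with only the groups compared and 519 and 338 with transcript length offsets, and DESeq2 called 334 lower. Against CHIR-99021 they were 625 and 402 with only the groups compared, 1558 lower with length offsets, and 427 to 2222 higher and 288 to 2410 lower without a library. Against LY-364747 they were 6 and 9 with DESeq2, 128 and 201 with no filter, 3 and 4 with length offsets and 0 lower with only the groups compared. Leaving out a library gave 0 to 1863 higher and 2 to 1953 lower, the highest without carbidopa replicate 2. The causes of these shifts were not tested.

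The correlation of replicate differences between groups ran from -0.14 to 0.11. Such small values over all genes cannot decide whether replicate numbers paired the samples. The median log2 ratio of replicate 1 to replicate 2 followed the percentage of G and C bases, with the genes split into 4 groups. From the lowest to the highest group it rose in MEF (-0.06 to 0.04), Carbidopa (-0.13 to 0.18) and CHIR-99021 (-0.12 to 0.14). In LY-364747 it fell from 0.12 to -0.11. The source of this trend was not tested. With the replicate block 2578 genes were higher and 2895 lower than in MEF, 278 and 157 against the mean of the other compounds, 1091 and 919 against CHIR-99021 and 0 and 2 against LY-364747. With the LY-364747 numbers crossed the last were again 0 and 2.

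Of the single-gene values, 12 changed sign or went to 0, in 6 genes of which 5 were not called against MEF, the exception being Neat1 (-0.71). Without a library, log2 fold changes ranged from -0.88 to 0.28 for mt-Nd4l, -0.18 to 0.11 for mt-Nd3, -0.12 to 0.16 for mt-Cytb, 0 to 9.23 for Hist2h2aa1 (a fitted value that rests on carbidopa replicate 1) and -0.071 to 0.33 for Ddc. mt-Cytb was -0.0052 with RLE size factors and -0.16 with length offsets, and Neat1 0.016 with length offsets. A further 46 fell below the threshold, 13 of them without MEF replicate 1, 14 without MEF replicate 2 and 7 without carbidopa replicate 1, and 5 passed it. Where a group kept 1 library, its spread was assumed to be that of the other groups. Of the hepatocyte genes 36 of 48 had under 10 reads in every library, too few for a test.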

Other observations

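Genes of the insulin-like growth factor system split with carbidopa. Of 20 tested, 5 rose and 10 fell against MEF (median log2 fold change -0.40), beside 18.0% and 19.7% of all genes tested. Igfbp6, a binding protein that prefers IGF2, measured 426 and 456 in MEF and 16629 and 9359.8 with carbidopa, so it rose far in both libraries but differed between them (4.90 ± 0.27, edgeR adjusted p = 4.19e-07). Igf1, the growth factor itself, fell from 3032 and 3543 to 308 and 401 (-3.19 ± 0.16). Among 24 chemokines and inflammatory genes, 6 rose and 11 fell (median -0.60), and 3 and 9 with MEF replicate 1 or 2 left out. The chemokines Cxcl12 and Cxcl14 measured 10050.0 and 10255 and 908 and 947 in MEF and 1001 and 1114 and 53.4 and 48.7 with carbidopa. Ptges, prostaglandin E synthase, rose from 353 and 328 to 1475 and 1465. Of 20 Wnt target genes 4 rose and 11 fell (median -0.64, 2 rises without MEF replicate 2), among them Lgr5 and the Wnt inhibitor Dkk2 (2916 and 3278 to 98.5 and 97.3), while the inhibitor Sfrp1 rose (2242 and 2599.5 to 6587 and 8430.2).

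Adipocyte genes also split, with 9 of 18 up and 3 down (median 0.50). For this and the following lists, the shares of all genes tested were 18.0% higher and 19.7% lower. Angptl4, which inhibits lipoprotein lipase, rose from 67.4 and 69.1 to 702 and 594, and the lipase gene Lpl and the fatty acid binding protein gene Fabp4 fell, from 6308 and 6865 to 1391 and 1338 and from 107 and 101 to 25.4 and 21.4. Antioxidant genes of the NRF2 pathway gave 12 rises and 2 falls of 27 (median 0.46, 11 and 5 without carbidopa replicate 1 and 11 and 0 without MEF replicate 2), and p53 target genes 10 rises and 0 falls of 26 (median 0.25), which became 7 and 4 without carbidopa replicate 1 and 5 and 0 with MEF replicate 1 or 2 left out. Of 15 aryl hydrocarbon receptor targets 3 rose and 4 fell (median 0.10, 5 and 4 without carbidopa replicate 1 and 3 and 7 without carbidopa replicate 2), with Cyp1b1 going from 4595 and 4878 to 1318 and 1372.

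In other lists, here and in the next paragraph, some genes rose and others fell. Of all genes tested, 18.0% were higher and 19.7% lower in the fit of all libraries, so counts near these shares do not set a list apart. In most of these lists the share of falls was above 19.7%, among them the immediate early, YAP and TEAD, ATF4 and lysosome lists. In glycolysis and hypoxia genes 8 rose and 8 fell of 31, in YAP and TEAD targets 6 and 10 of 24, and in immediate early genes 5 and 12 of 27 (8 and 11 without carbidopa replicate 2). Glycogen genes gave 6 and 5 of 22 (4 and 3 with MEF replicate 1 or 2 left out, 6 and 8 without carbidopa replicate 2) and fatty acid synthesis genes 5 and 4 of 16 (2 and 1 without MEF replicate 1, 3 and 0 without MEF replicate 2). Lysosome genes gave 7 and 13 of 35 (3 and 4 without MEF replicate 1, 2 and 4 without MEF replicate 2). In amino acid stress genes under ATF4 the counts were 6 and 11 of 27, or 3 and 6 without MEF replicate 1, 3 and 9 without MEF replicate 2, 4 and 11 without carbidopa replicate 1 and 11 and 12 without carbidopa replicate 2. In the unfolded protein response they were 3 and 7 of 21, or 1 and 4 and 0 and 3 without MEF replicates 1 and 2 in turn, and 0 and 7 without carbidopa replicate 1.

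Markers of other cell types gave 2 rises and 4 falls of 9 for endothelium and 2 and 5 of 11 for neural and glial cells, each with 1 rise with MEF replicate 1 or 2 left out. The neural list also had 1 rise without carbidopa replicate 1. Bone and cartilage genes gave 1 and 5 of 8 (2 rises without carbidopa replicate 1) and skeletal muscle genes 1 and 3 of 7 (0 rises without MEF replicate 2). Replication-dependent histone genes gave 1 rise and 0 falls of 12, or 4 rises without carbidopa replicate 2 and 0 with MEF replicate 1 or 2 left out. Nuclear-retained and structural RNAs gave 0 and 4 of 10, with 2 falls without carbidopa replicate 1 and 1 without MEF replicate 1.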
